A study of Mus musculus with 5 samples.

Results

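The genes described here encode the hexameric MCM helicase (Mcm2, Mcm3, Mcm4, Mcm5, Mcm6 and Mcm7), the sliding clamp Pcna, the helicase loader Cdt1 and its inhibitor geminin (Gmnn). The 9 genes were chosen by name, as genes with a protein_coding transcript under their Gencode symbol, out of 21849 such genes in the deposited table. They had 23 protein_coding transcripts and 49 transcripts in all, of 135276 deposited, and the protein_coding transcript with the highest mean level stood for each gene. The measurement was ribosome profiling of mouse embryonic stem cells (mESCs) by 2 methods, standard RIBO-seq (3 libraries) and AHARIBO RIBO-seq (2 libraries), which the labels call biological replicates. All cells were kept on gelatin in medium with serum and LIF, received cycloheximide before lysis, and the lysates received 1.3 U of RNase I over 45 min. The labels call all 5 libraries untreated and give no genetic change; the study's resource list names one mESC line, 46C. In the standard libraries, ribosomes were pelleted through 30% sucrose. In the AHARIBO libraries, nascent peptides carrying the methionine analogue L-azidohomoalanine (AHA) were coupled in the lysate to a biotin reagent at 50 µM and captured on magnetic beads for 30 min. The sources used here give no AHA dose specific to RIBO-seq, and AHA labelling as the study describes it includes a period in methionine-depleted medium, which limits it as a model of ordinary growth. Protected fragments of 25 to 35 nt were sequenced in both methods.

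MCM2 to MCM7 form a ring of related ATPases that unwinds DNA ahead of the replication fork. The ring is placed on DNA in G1 phase by the origin recognition complex, Cdc6 and Cdt1, a step called licensing, and geminin binds Cdt1 later in the cell cycle so that origins are not licensed again. Pcna encircles DNA and tethers polymerases and other replication enzymes to the template. mESCs are known for a short G1 phase and a large share of cells in S phase.

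After removal of duplicate reads, the libraries held 6403651 to 11150527 reads. CPM below are counts scaled to library size with TMM factors, and levels of different genes are compared only as CPM per kb of coding sequence. Pluripotency genes checked the label of the cells: all 10 were detected in every library, from Fgf4 at 40.0 to 52.3 CPM to Pou5f1 at 213.6 to 276.0 CPM. Their summed level was 1504 to 1598 CPM in the standard and 1341 to 1467 CPM in the AHARIBO libraries, and 3 of the 10 (Sox2, Klf4 and Utf1) were lower in AHARIBO at an adjusted p under 0.05 in edgeR, where 5.12% of all genes were called in either direction. DESeq2 called 2 of the 10, with an adjusted p of 0.051 for Sox2. The 8 fibroblast markers summed to 80.5 to 84.2 CPM in the standard and 74.6 to 81.2 CPM in the AHARIBO libraries, almost all of it Vim, while Dcn and Lum had 0 reads. The neural list summed to 57.3 to 58.3 CPM in the standard and 51.4 to 53.5 CPM in the AHARIBO libraries, without overlap. Tubb3 and Sox1 made up most of the neural sum. Of the 6 neural genes, 4 had log2 fold changes above 0, the median was 0.033 and none was called in edgeR. The endoderm and mesoderm list summed to 4.64 to 6.66 CPM in the standard and 4.20 to 5.29 CPM in the AHARIBO libraries. The part of these differences in the results below was not tested.

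The 6 helicase subunits share the Walker A motif, the loop that holds ATP, and its coding bases are shown because they mark what makes the 6 proteins 1 family. Bases in capitals are the same in all 6 genes, 8 of 24 positions. The codons lie at 523 to 530 in Mcm2, 345 to 352 in Mcm3, 509 to 516 in Mcm4, 381 to 388 in Mcm5, 396 to 403 in Mcm6 and 381 to 388 in Mcm7, counted from the start codon (GRCm38; the Mcm3 run spans an intron).
Mcm2: GGgGAcCCtggcacagcaAAgtcc
Mcm3: GGtGAcCCctccgttgccAAgtcc
Mcm4: GGgGAcCCtggcaccagcAAgtcc
Mcm5: GGaGAcCCtggtacagccAAgtct
Mcm6: GGtGAtCCaagtacagctAAgagc
Mcm7: GGaGAcCCtggtgtggccAAatct
The proteins were translated from the full coding sequences and aligned in pairs. Identity among the aligned residues, leaving out unaligned parts, ran from 33.3% (Mcm4 with Mcm6) to 38.1% (Mcm3 with Mcm7). No 30-nt window of any subunit's transcript occurred in that of another subunit, so exact reads of that length or longer told the 6 genes apart. Shorter windows were not tested.

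Per kb of coding sequence, the 6 subunits were read at levels within 1.49-fold of each other. Over the 5 libraries, Mcm5 stood at 88.1 ± 3.73 CPM per kb (SD, n = 5), Mcm7 at 86.7 ± 4.40 and Mcm2 at 86.3 ± 5.53. Mcm3 followed with 79.7 ± 3.51, Mcm6 with 66.6 ± 1.32 and Mcm4 with 59.0 ± 2.28 CPM per kb. The order therefore has 3 subunits that sit together at its top and a lower pair, Mcm6 and Mcm4, at its foot.
Neighbours in this order were compared as log2 ratios within each library by an exact two-sided sign-flip test, for which 5 libraries allow no p below 0.0625. The order was set from the means of the same 5 libraries, so the direction of each ratio was chosen on the values tested. Libraries of both methods were pooled and may come from the same lysates. Mcm5 over Mcm7 averaged 0.024 ± 0.027 on the log2 scale (SD, n = 5; p = 0.1875, adjusted p = 0.234 over 5 pairs, exact). Mcm7 over Mcm2 averaged 0.0069 ± 0.050 and was above 0 in 3 of 5 libraries (p = 0.8125, adjusted p = 0.8125, exact). These 3 subunits did not differ beyond their spread. Mcm2 over Mcm3 (0.11 ± 0.059), Mcm3 over Mcm6 (0.26 ± 0.071) and Mcm6 over Mcm4 (0.18 ± 0.038) were each above 0 in 5 of 5 libraries, with the smallest p the test can give (p = 0.0625, adjusted p = 0.104, exact). Mcm5 exceeded Mcm4 by 0.50 to 0.73 on the log2 scale in the 5 libraries.

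The order rests on the length and the transcripts used. Per kb of the whole transcript, Mcm2 led with 69.5 and Mcm5 stood in the fourth place with 57.4, since Mcm5 has 3381 nt of transcript for 2202 nt of coding sequence. With CPM summed over all protein_coding transcripts, Mcm6 passed Mcm2 and Mcm3, and Mcm5 stood 3.50-fold above Mcm4. The other 2 protein_coding transcripts of Mcm5 were each listed with 98.3% of the main transcript's count and that of Mcm6 with 98.9%, so the sum takes nearly the same count 3 times for Mcm5 and 2 times for Mcm6. Mcm7 has 7 protein_coding transcripts in it and Mcm2 has 1. Mcm4 was the lowest of the 6 under each of these settings and with duplicate reads kept.

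**Figure D1:**
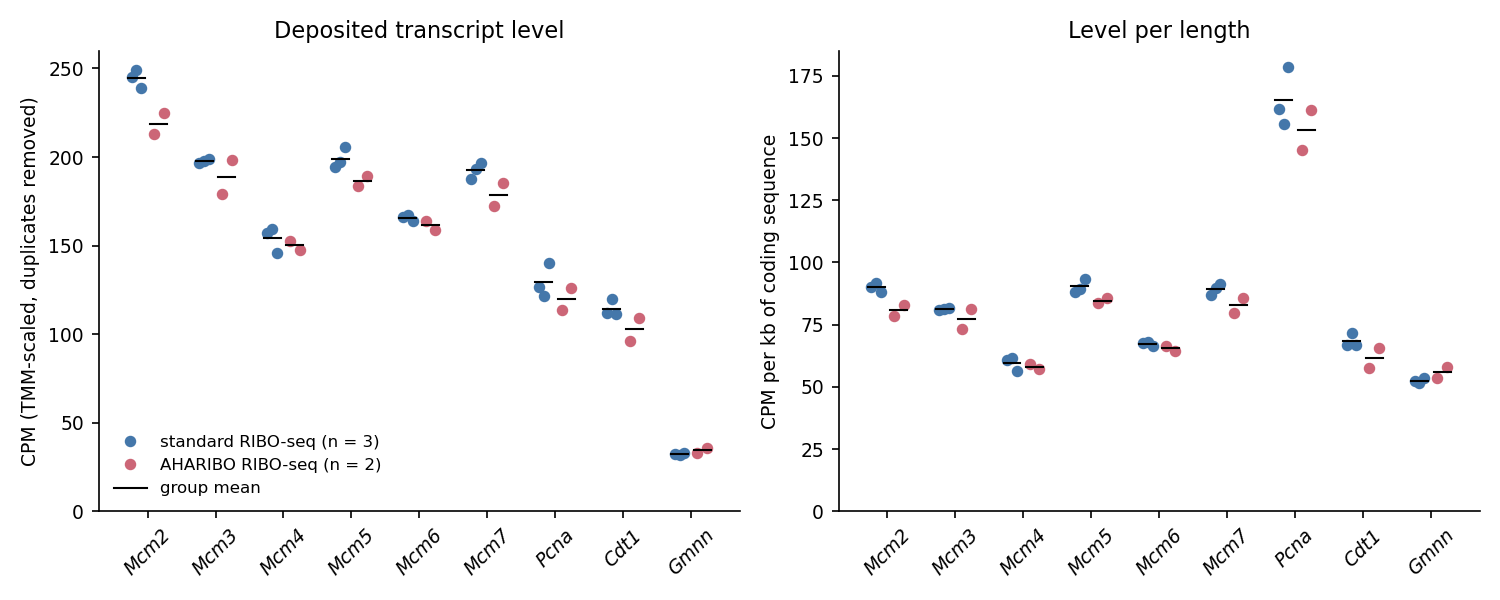
Levels of the 9 genes in each library. Left, CPM of the highest protein_coding transcript; right, CPM per kb of coding sequence. Blue points are the 3 standard and red points the 2 AHARIBO libraries, and black bars are group means. Pcna stood highest per kb, and the 6 subunits lay between 56.4 and 93.4 CPM per kb in every library.

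Among 11613 genes with a mean of at least 1 CPM and an annotated coding sequence, all 9 genes ranked in the upper part per kb. Pcna was at rank 288, the 6 subunits were between rank 598 (Mcm5) and rank 995 (Mcm4), Cdt1 was at rank 847 and Gmnn at rank 1088. The mean of the 6 subunits was 77.7 CPM per kb, and the median over the ranked genes was 7.77. By root mean square difference of log2 CPM per kb over the 5 libraries, genes outside the lists that lay close to the subunit mean included Eif3d (0.042), Nudt21 (0.044), Eif4b (0.047) and Uba1 (0.049). Eif3d and Eif4b are translation initiation factors, Nudt21 acts in mRNA 3′ end processing, and Uba1 is a ubiquitin-activating enzyme.

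Whether capture through the nascent chain changes the reading of these genes was asked by comparing AHARIBO with standard RIBO-seq. None of the 9 genes passed an adjusted p under 0.05 in edgeR's quasi-likelihood test, in a fit where 5.12% of 12361 genes passed on their highest protein_coding transcript. In bulk libraries such as these, fewer cells of a type and less RNA per cell cannot be told apart. DESeq2 called 0 of the 9 as well, with 2.01% called of the 4339 genes to which it gave an adjusted p. In edgeR, 1 of the 9, Mcm2, had an unadjusted p under 0.05, against 19.4% of genes. Log2 fold changes of AHARIBO over standard were below 0 for 8 of the 9 genes and their median was -0.093. The median over the 12361 genes was -0.0031, with 6106 above 0. The values of the 2 methods did not overlap for 6 of the 9 genes, beside 34.3% of all genes.

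Mcm2, which with Mcm5 forms the gate of the ring, had the largest difference among the subunits. It was at 244.9, 249.1 and 239.1 CPM in standard replicates 1, 2 and 3, and at 213.0 and 224.7 CPM in AHARIBO replicates 1 and 2. Both AHARIBO libraries lay below all 3 standard libraries, and the log2 fold change was -0.16 ± 0.075 (SE; edgeR adjusted p = 0.235), with an approximate 95% interval of -0.31 to -0.012.
Mcm5, its partner at the gate, was at 194.3, 197.1 and 205.6 CPM in standard and at 183.9 and 189.1 CPM in AHARIBO RIBO-seq. The groups did not overlap, and the log2 fold change was -0.093 ± 0.076 (edgeR adjusted p = 0.551).
Mcm7 was at 187.3, 193.5 and 196.9 CPM in standard and at 172.3 and 185.1 CPM in AHARIBO RIBO-seq, again without overlap, with a log2 fold change of -0.11 ± 0.076 (edgeR adjusted p = 0.476). Mcm7, Mcm4 and Mcm6 make up the ATPase core that was first isolated with helicase activity of its own.
Mcm6 was at 166.3, 167.4 and 163.9 CPM against 163.8 and 159.0 CPM, adjoining values without overlap (log2 fold change -0.040 ± 0.076, edgeR adjusted p = 0.836). Mcm4 was at 157.1, 159.5 and 145.8 CPM against 152.9 and 147.6 CPM, and Mcm3 at 196.8, 198.0 and 198.8 CPM against 178.9 and 198.2 CPM. For both genes the groups overlapped, with log2 fold changes of -0.039 ± 0.077 for Mcm4 and -0.070 ± 0.076 for Mcm3 (edgeR adjusted p = 0.844 and 0.681). With each library left out in turn, the log2 fold changes ranged from -0.20 to -0.12 for Mcm2 and from -0.11 to -0.070 for Mcm5. Those of the other subunits moved more: Mcm7 was at -0.056 without AHARIBO replicate 1 and -0.16 without AHARIBO replicate 2, and Mcm3 at 0.0027 and -0.14. Mcm6 was at -0.062 and -0.016 without these libraries, and Mcm4 ranged from -0.075 without standard replicate 3 to -0.012 without AHARIBO replicate 2, with -0.013 without standard replicate 2, -0.025 without standard replicate 1 and -0.065 without AHARIBO replicate 1. The approximate 95% intervals of the 6 subunits together spanned -0.31 to 0.11 on the log2 scale.

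Whether the balance within the ring differed between methods was asked with each subunit's share of the summed CPM per kb of the 6. An equal share would be 16.7%. Mcm2 took 19.0%, 19.1% and 18.5% of the sum in the standard libraries and 17.8% and 18.1% in the AHARIBO libraries. Its share was thus lower in both AHARIBO libraries, by 0.89 percentage points (18.9 ± 0.33 against 18.0 ± 0.21, SD), but the exact two-sided permutation test of the libraries gave p = 0.2 (adjusted p = 0.60 over 6 subunits) and cannot go below 0.1 with 10 splits. Mcm6 took 14.2%, 14.1% and 13.9% in the standard libraries against 15.1% and 14.1%, and Mcm4 12.8%, 12.8% and 11.8% against 13.4% and 12.5%. The Mcm2 values of the 2 methods did not overlap, and its difference was between -1.09 and -0.75 percentage points with each library left out in turn. The mean shares of the other subunits moved by 0.50 percentage points or less, with exact p from 0.2 to 1.0, but these sizes moved with single libraries of either method. Without AHARIBO replicate 1, the differences in percentage points were 0.79 for Mcm3, 0.080 for Mcm7, 0.016 for Mcm6, 0.0036 for Mcm4 and -0.14 for Mcm5. Without AHARIBO replicate 2, they were -0.34 for Mcm3, -0.57 for Mcm7, 0.99 for Mcm6, 0.93 for Mcm4 and 0.029 for Mcm5. Leaving out each standard library gave 0.16 to 0.27 for Mcm3, -0.43 to -0.023 for Mcm7, 0.43 to 0.57 for Mcm6, 0.14 to 0.63 for Mcm4 and -0.22 to 0.27 for Mcm5, where the lowest value of Mcm4 and the values nearest and above 0 of Mcm7 and Mcm5 came without standard replicate 3. Thus no direction held for Mcm3, Mcm5 and Mcm7 in all 5 of these settings.

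**Figure D2:**
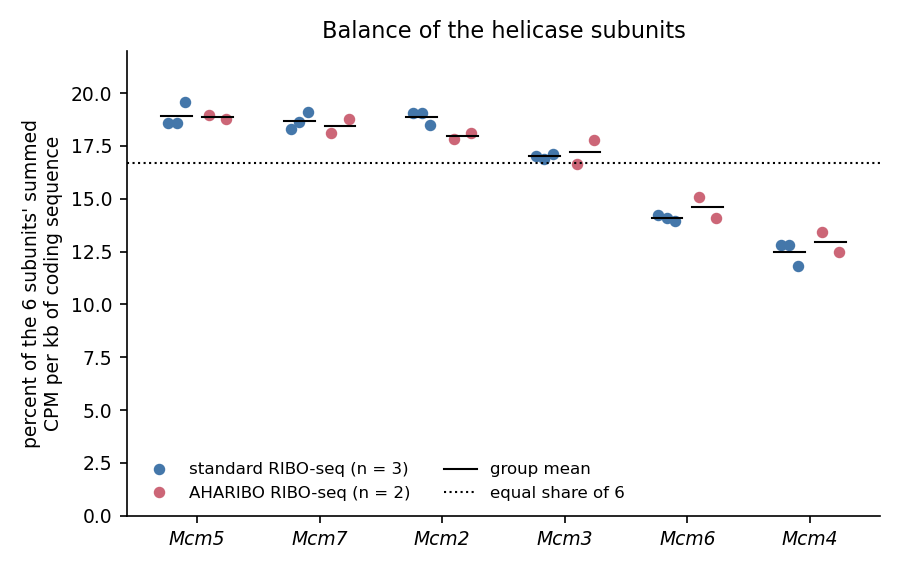
Share of each helicase subunit in the summed CPM per kb of coding sequence of all 6, in percent, by library. Blue points are standard and red points AHARIBO libraries, black bars are means and the dotted line is an equal share of 16.7%. Mcm5, Mcm7 and Mcm2 lie above that line in every library, and Mcm6 and Mcm4 below it.

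Pcna, the clamp, was the highest of the 9 genes per kb, at 160.4 ± 12.2 CPM per kb (SD, n = 5). It was at 126.5, 121.7 and 139.9 CPM in the standard and at 113.7 and 126.1 CPM in the AHARIBO libraries, with overlapping groups (log2 fold change -0.11 ± 0.080, edgeR adjusted p = 0.503). That fold change was -0.033 without AHARIBO replicate 1, -0.18 without AHARIBO replicate 2 and -0.051 without standard replicate 3. Per kb, Pcna was 2.06-fold the mean of the 6 subunits, and this log2 ratio was 1.03, 0.95 and 1.17 in standard and 0.98 and 1.08 in AHARIBO RIBO-seq (p = 1.0, exact permutation test). The clamp acts as a trimer of 1 protein, and the helicase holds each of its 6 proteins 1 time.
Pcna's value carries a limit. Of the 30-nt windows of its transcript, 38.4% occur identically in the processed pseudogene Pcna-ps2 on chromosome 19, which was listed with 979, 954, 753, 1149 and 1122 reads in the libraries standard 1 to 3 and AHARIBO 1 and 2. Reads of these 2 genes cannot be told apart over that part. Mcm7 shares 38.3% of its windows with the pseudogene Gm5487. No transcript of Gm5487 was found under that name in the deposited counts, so reads from it could not be seen apart from those of Mcm7. On the opposite strand Mcm7 shares 10.2%, most of it with Ap4m1. The share was 8.14% for Gmnn (Gm6510), 5.79% for Mcm4 (Gm9577), 2.29% for Mcm6 (Gm15654) and 1.82% for Mcm5 (repeats in many genes), and Mcm2, Mcm3 and Cdt1 shared none.

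Cdt1, the loader, and Gmnn, its inhibitor, differed in sign. Cdt1 was at 111.8, 119.7 and 111.5 CPM in standard and at 96.2 and 109.3 CPM in AHARIBO RIBO-seq, without overlap (log2 fold change -0.16 ± 0.080, edgeR adjusted p = 0.281). Gmnn was at 32.3, 31.9 and 33.0 CPM in standard and at 33.2 and 35.9 CPM in AHARIBO RIBO-seq, also without overlap but with the AHARIBO libraries above (log2 fold change 0.093 ± 0.089, edgeR adjusted p = 0.623). Neither passed the test, and both sizes moved with the AHARIBO library used. Without AHARIBO replicate 1 the log2 fold change was -0.066 for Cdt1 and 0.15 for Gmnn, and without AHARIBO replicate 2 it was -0.25 and 0.039.
Per kb of coding sequence, Cdt1 stood at 65.6 ± 5.10 and Gmnn at 53.8 ± 2.58 CPM per kb (SD, n = 5), so on main transcripts the loader was read 1.22-fold above its inhibitor. This order depends on the transcripts used. Cdt1 has 1 protein_coding transcript, while Gmnn has 4, the others listed with 78.6%, 56.3% and 46.9% of the main transcript's count. With protein_coding transcripts summed, Gmnn stands above Cdt1 per kb. On main transcripts, the ratio of Cdt1 to Gmnn was 1.28, 1.39 and 1.25 in standard replicates 1 to 3 and 1.07 and 1.12 in AHARIBO replicates 1 and 2. Cdt1 exceeded Gmnn in 5 of 5 libraries, and the ratio was lower in both AHARIBO libraries than in any standard library. On the log2 scale it was 0.38 ± 0.078 against 0.14 ± 0.049, a difference of -0.25, with p = 0.1, the smallest that the exact permutation test allows (adjusted p = 0.20 over 4 ratios). Gmnn over the helicase mean moved the other way by 0.18, from -0.60 ± 0.032 to -0.42 ± 0.045 (p = 0.1, adjusted p = 0.20, exact). Cdt1 over the helicase mean was -0.22 ± 0.047 in standard and -0.29 ± 0.093 in AHARIBO RIBO-seq (p = 0.5, adjusted p = 0.667, exact), and the difference of -0.067 was -0.00074 without AHARIBO replicate 1 and -0.13 without AHARIBO replicate 2.

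Most other genes of the replication pathway were read below the helicase: 62 of 69 stood lower per kb than Mcm4, the lowest subunit. The lists held 73 symbols, of which 72 were found. The symbol not found was Skp1, listed beside Skp1a, which was found. Of the 72, these 69 passed the filter and were tested. Of the 69, 4 passed an adjusted p under 0.05 (edgeR), all higher in AHARIBO RIBO-seq, none lower, and 65 did not pass. This is 5.80% beside 5.12% of all genes. DESeq2 called 0 of the 69, but gave no adjusted p for some of them, Orc4 and Cdc7 included. The median log2 fold change over the 69 genes was 0.060, with 42 above 0.
The 6 subunits of the origin recognition complex and Cdc6, which load the helicase, lay between 5.56 (Orc4) and 39.5 CPM per kb (Orc6), below each helicase subunit. Orc4 was the gene called in this list, at 5.83, 7.95 and 4.28 CPM in standard and at 9.27 and 8.79 CPM in AHARIBO RIBO-seq. Both AHARIBO libraries were above all standard libraries (log2 fold change 0.54 ± 0.17, edgeR adjusted p = 0.048; DESeq2 gave no adjusted p).
Of 12 genes that fire the loaded helicase, levels ran from 2.33 (Recql4, a RecQ-family helicase) to 43.2 CPM per kb (Gins4, of the GINS complex that rides with the helicase). Cdc7, the kinase that phosphorylates the MCM ring, was the gene called, at 11.8, 11.4 and 8.73 CPM against 13.3 and 15.9 CPM (log2 fold change 0.43 ± 0.13, edgeR adjusted p = 0.047). The group values of Cdc7 did not overlap, and DESeq2 gave Cdc7 no adjusted p. Its partner Dbf4 was at 44.0, 44.5 and 42.5 CPM against 47.9 and 48.7 CPM (log2 fold change 0.14, adjusted p = 0.373).
Of 12 replicative polymerase genes, the range was 7.22 (Pold4) to 61.5 CPM per kb (Pole4), both small accessory subunits. Pola1, the catalytic subunit of the polymerase that starts each strand, was called, at 37.0, 31.3 and 31.3 CPM against 44.7 and 45.0 CPM. Both AHARIBO libraries exceeded all standard ones (log2 fold change 0.43 ± 0.089, edgeR adjusted p = 0.0020; DESeq2 adjusted p = 0.052).
Of 10 genes that turn over Cdt1 and geminin through ubiquitin ligases, the range was 9.63 (Cul4a) to 96.7 CPM per kb (Skp1a, an adaptor of SCF ligases). Cul4b, a scaffold of the ligases that mark Cdt1, was called, at 81.0, 82.2 and 74.2 CPM against 102.8 and 92.9 CPM. The groups did not overlap (log2 fold change 0.30 ± 0.080, edgeR adjusted p = 0.018; DESeq2 adjusted p = 0.085).
None was called among 12 genes of clamp loading and lagging-strand synthesis, which ran from 1.03 (Atad5, a clamp unloader) to 73.6 CPM per kb (Rfc5, of the clamp loader). None was called among 5 S phase cyclin and kinase genes (1.82 for Ccne2 to 71.6 for Ccna2), 4 fork protection genes (4.24 for Clspn to 34.7 for Tipin) and 3 single-strand binding genes (43.9 for Rpa3 to 59.4 for Rpa1). Of the Mcm relatives, Mcm8 was lowest of the 4 tested at 6.61 and Mcmbp highest at 30.1 CPM per kb, and none was called. Mcmdc2 and the geminin relatives Gmnc and Mcidas were below 1 CPM in every library and were not tested. Leaving out 1 library gave 1 to 5 pathway calls, with 1 call each without standard replicate 1, standard replicate 3 or AHARIBO replicate 1. Of the called genes, Pola1 passed under 12 of 14 alternatives, Cul4b under 7, and Orc4 and Cdc7 under 3 each.

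**Figure D3:**
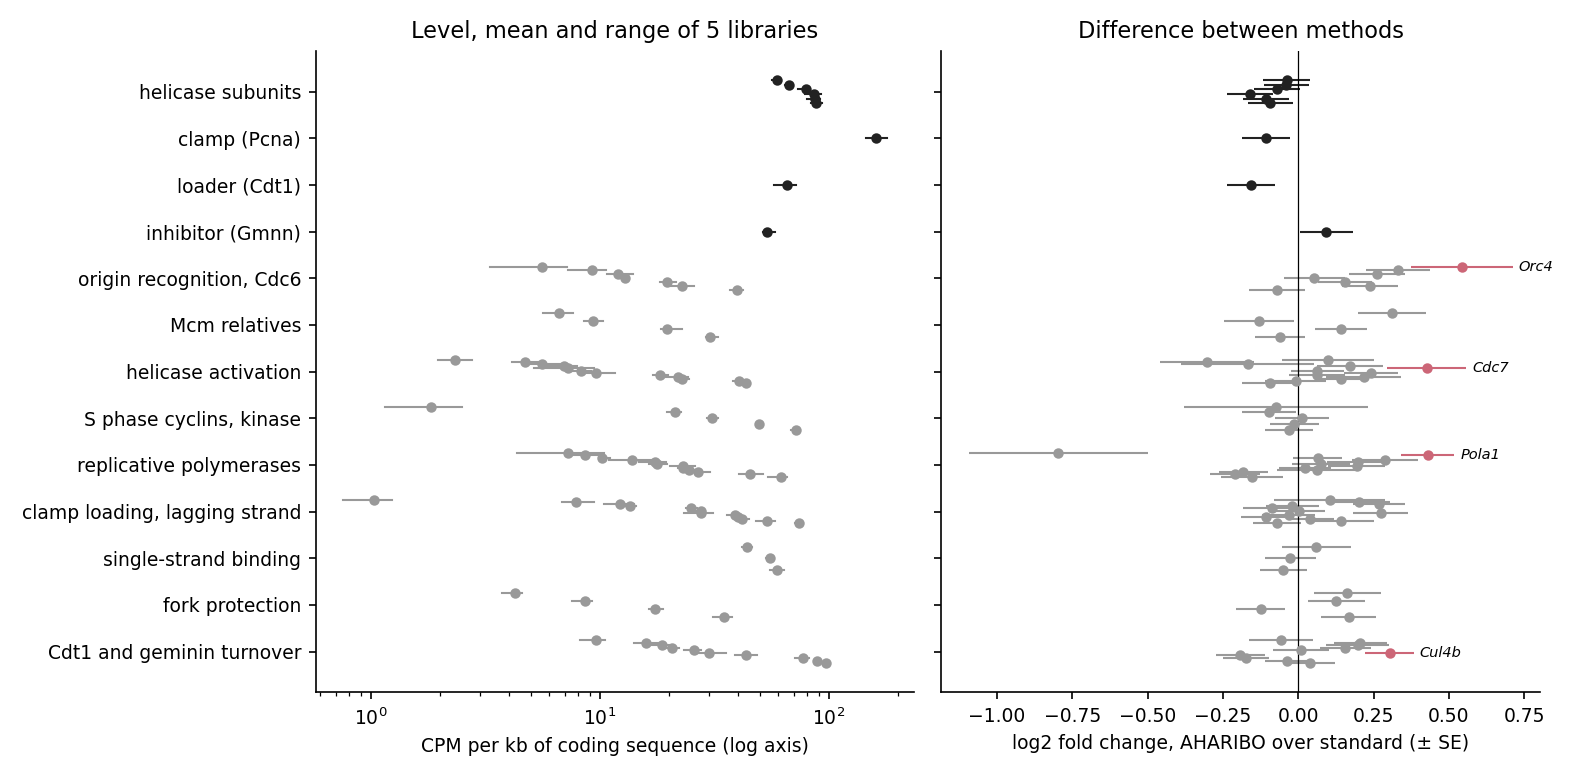
Replication genes by role, 1 point a gene, with the 9 genes of the helicase and licensing group in black and other genes in grey. Left, mean CPM per kb of coding sequence with the range over 5 libraries (log axis). Right, log2 fold change of AHARIBO over standard with its SE, where red marks the 4 genes with an adjusted p under 0.05, all to the right of 0.

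The other transcripts of the 9 genes gave a view along the coding sequence, since many of them hold only a part of it. This was looked at after the values were known. It assumes that a read is counted for each transcript it fits, which the sources used here do not state. All 49 transcripts were tested and 7 were called by edgeR, 5 lower and 2 higher in AHARIBO RIBO-seq, in a fit where 4.51% of transcripts were called (2.24% lower, 2.27% higher). The 5 lower ones all began in the early part of the coding sequence, 4 of them in Mcm2 and 1 in Cdt1, and within Mcm2 their stretches overlap in part. Transcripts of 1 gene are not separate observations. The whole coding sequence of Mcm3 and of Cdt1 is also in a retained-intron transcript, listed with 99.4% and 99.8% of the main transcript's count, and the 4 called Mcm2 transcripts cover codons 1 to 79, 79 to 150 and parts of 1 to 155 and 1 to 192. The start codons of these genes, with 6 bases of leader and ATG in capitals (GRCm38), mark where that early part begins, and Gmnn has a second ATG as its codon 5.
Mcm2: gcagacATGgcggagtcttctgagtctctc
Cdt1: ggcgccATGgcgcaaagtcgtgttaccgat
Gmnn: tgaaaaATGaatctcagtATGaagcagaag

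In Mcm2, the transcript ENSMUST00000204217.1 holds codons 1 to 79 of 904 and a retained intron, so that 59.7% of its own length is outside the main exons. It was at 34.5, 29.0 and 33.8 CPM in the standard and at 23.1 and 21.0 CPM in the AHARIBO libraries. Both AHARIBO libraries were far below all standard ones, with a log2 fold change of -0.55 ± 0.099 (edgeR adjusted p = 2.9e-04, DESeq2 adjusted p = 0.014). Its count was 14.1%, 11.7% and 14.1% of that of the main transcript in standard against 10.8% and 9.33% in AHARIBO RIBO-seq and was lower in both AHARIBO libraries. With the retained intron in it, this percentage is a ratio of 2 counts and not a share of the main transcript's reads.
The 3 other called Mcm2 transcripts lie within codons 1 to 192. ENSMUST00000204393.1, with no base outside the main exons, was at 24.2, 23.1 and 25.2 CPM against 17.9 and 20.0 CPM (log2 fold change -0.35 ± 0.10, edgeR adjusted p = 0.039, DESeq2 0.219). Further along, the transcript of codons 145 to 381 had a log2 fold change of -0.19 ± 0.082 and that of codons 298 to 476 one of -0.0056 ± 0.086, neither called (edgeR adjusted p = 0.191 and 0.984).
Cdt1 had a like order. Its transcript of codons 1 to 201 of 557 was at 43.9, 46.2 and 41.9 CPM against 32.2 and 39.3 CPM (log2 fold change -0.31 ± 0.091, edgeR adjusted p = 0.037, DESeq2 0.194). The transcript of codons 109 to 303 was at -0.037 ± 0.093 and that of codons 419 to 519 at 0.038 ± 0.11 on the log2 scale, neither called (edgeR adjusted p = 0.882 and 0.902).
Of the 7 called transcripts, only the Mcm2 transcript of codons 1 to 79 kept an adjusted p under 0.05 in each of the 12 alternatives that could be applied to it, DESeq2 among them. The Cdt1 transcript passed in 6 of 12, and its log2 fold change was -0.17 without AHARIBO replicate 1 (edgeR adjusted p = 0.653) and -0.45 without AHARIBO replicate 2 (0.0048).

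Positions were then compared in the table as a whole. Part transcripts were taken as those that cover a stretch of at most 50% of the main coding sequence, and each was set against the main transcript of its gene by the difference in log2 fold change. In all other genes, the median difference was -0.096 for 12564 part transcripts centred in the early of 3 equal parts of the coding sequence, 0.056 for 3942 in the middle part and 0.096 for 5833 in the late part. Leaving out each library in turn kept the early median between -0.12 and -0.070 and the late median between 0.065 and 0.11, while the middle median was 0.034 without AHARIBO replicate 1. Of the early part transcripts of other genes, 3.31% were called lower and 0.629% higher. Of the late ones, 0.223% were called lower and 2.76% higher.
The 9 genes had 30 such part transcripts. Of 16 early ones, 5 were called lower (Mcm2 and Cdt1), 7 lay below their main transcript, and the differences ran from -0.39 to 0.52 with a median of 0.046, above 0 where that of other genes was below it. Of the 6 middle ones none lay below the main transcript (median 0.13), and of the 8 late ones 1 did (median 0.20). None of the middle and late ones was called. Mcm7 did not share the order: its 7 early part transcripts lay 0.040 to 0.14 above its main transcript, and its late one 0.084 above. Mcm4 had 2 early part transcripts at 0.073 and 0.52 above its main transcript, the latter with 5.39 to 6.95 CPM in standard and 9.45 and 8.29 CPM in AHARIBO RIBO-seq (its own log2 fold change 0.48, edgeR adjusted p = 0.066). Pcna's part transcript over the end of the coding sequence lay 0.41 above its main transcript, a difference that was not tested; its own log2 fold change was 0.30 (edgeR adjusted p = 0.105).

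**Figure D4:**
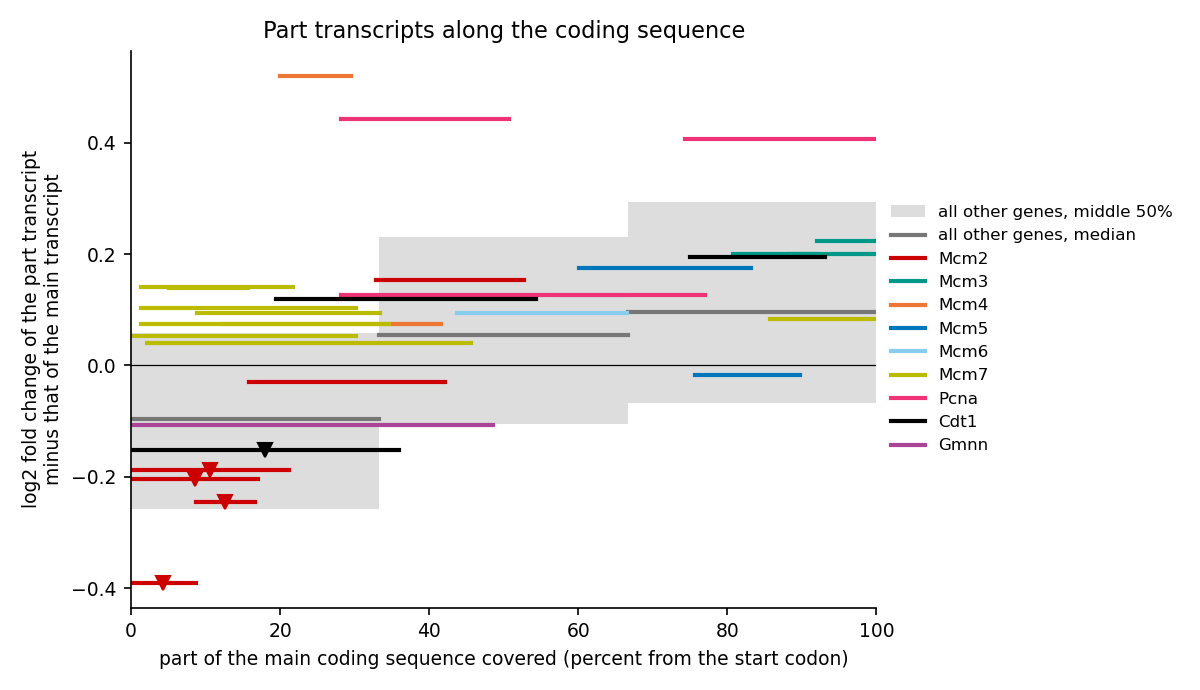
Part transcripts of the 9 genes, drawn as bars over the stretch of the main coding sequence they cover (percent from the start codon), at their log2 fold change minus that of the main transcript. Triangles mark the 5 with an adjusted p under 0.05. Grey lines and bands are the median and the middle 50% over all other genes for 3 equal parts of the coding sequence, rising from -0.096 to 0.096. The lowest bar, of Mcm2, begins at the start codon, and the 4 triangles of Mcm2 lie within the first 21.2% of its coding sequence.

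Gmnn's transcripts differ at their leaders. The main transcript has a leader of 118 nt with no ATG, and its last exon junction lies 7 nt before the start codon. A second transcript, ENSMUST00000006898.9, has the same coding sequence and 3′ end but another leader junction and lacks 62 nt of that leader. Its own leader has 282 nt, of which 226 nt are not in the main one. The difference of the 2 counts is therefore not the number of reads on those 62 nt. The main transcript held 71, 76 and 47 more reads than this one in standard replicates 1 to 3 and 56 and 76 more in AHARIBO replicates 1 and 2. This net difference of 2 counts was 7.95, 8.39 and 7.46 CPM in standard and 4.90 and 7.59 CPM in AHARIBO RIBO-seq, so the groups overlapped. Set against the main transcript's count it was 24.7%, 26.3% and 22.6% in standard and 14.8% and 21.1% in AHARIBO RIBO-seq, without overlap. The difference between methods was not tested on either scale.
The 2 called Gmnn transcripts, which have other first exons and end before the stop codon, were higher in AHARIBO RIBO-seq. ENSMUST00000176890.7, over codons 1 to 168 of 206, was at 13.4, 12.8 and 14.9 CPM in standard and at 18.0 and 17.9 CPM in AHARIBO RIBO-seq (log2 fold change 0.40 ± 0.12, edgeR adjusted p = 0.032). ENSMUST00000175689.7, over codons 1 to 200, was at 15.6 to 17.3 CPM in the 3 standard libraries against 21.3 and 21.2 CPM (log2 fold change 0.36 ± 0.11, edgeR adjusted p = 0.039, DESeq2 0.264). In both, the AHARIBO libraries were above all standard libraries, and the stretches of coding sequence they hold overlap.

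Since AHA enters at methionine codons, these were counted in each coding sequence. Gmnn has the fewest, 4 in 206 codons, followed by Pcna with 10 in 261, Cdt1 with 13 in 557 and Mcm6 with 14 in 821. Mcm2 and Mcm5 have the most, 29 in 904 and 29 in 734. As a percentage of codons, Mcm6 has the fewest with 1.71%, followed by Gmnn with 1.94%, and Mcm5 and Pcna have the most with 3.95% and 3.83%. The methionine codon after the start lay at position 5 in Gmnn, 40 in Pcna, 50 in Mcm4, 63 in Mcm2, 74 in Mcm5, 108 in Mcm7, 204 in Mcm3, 209 in Cdt1 and 329 in Mcm6. A relation of methionine number or position to the difference between methods was not tested.

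Removal of duplicate reads took a share of each gene's reads that depended on the gene. In the standard libraries it was highest in Pcna, at 46.0% ± 1.97 (SD, n = 3), and lowest in Mcm4, at 23.2% ± 1.47. Over the highest transcripts of 11613 genes it was 41.1% to 43.7% in the 5 libraries. How duplicates were defined is not given in the sources used here, so independent fragments with the same ends may be among the reads removed. Cdt1 stood apart in standard replicate 3, where 41.9% of its reads were removed against 31.0% and 32.8% in the other standard libraries and 34.8% and 26.6% in the AHARIBO libraries. With duplicates kept, the difference in the log2 ratio of Cdt1 to Gmnn was -0.42 in place of -0.25.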

How the data were processed

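Ribosome profiling counts were analysed for 3 standard and 2 AHARIBO libraries of mESCs, grouped by the labels. The authors trimmed reads with Trimmomatic 0.36, removed rRNA and tRNA reads, aligned the rest with STAR to the Gencode transcripts, and removed antisense and duplicate reads. They deposited raw counts of reads per transcript, with and without duplicates, and the transcript length in nt (the deposited length column serves as another measure beside the counts). How reads that fit several transcripts were counted is not given in the sources used here. The deposited counts without duplicates were used. All per-sample columns were mapped to libraries.

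TMM factors were computed over all transcripts, 66972 transcripts that reached 1 CPM in any library were kept, and differences were tested with the quasi-likelihood test of edgeR 4.0.16 in R 4.3.3, without a replicate block, with Benjamini-Hochberg adjustment over all transcripts kept. Standard errors were derived from log2 fold changes and F statistics, so they and the intervals made from them are approximate. As a second tool, DESeq2 1.42.0 was run. On simulated data for this comparison (66948 transcripts, 200 of them changed), edgeR called 75.5% of the changed transcripts, 92% where the change was 4-fold, and 7 of the others. The simulation drew each transcript independently at a fixed dispersion, with changes larger than those of the 9 genes. Its rates therefore do not give the power or error for those genes. Exact tests used scipy 1.17.1. Gene names, coding lengths and coordinates came from Gencode M21 (GRCm38), which held 99.8% of the 135276 transcripts; 324 had no match. All 9 main transcripts matched with their version. A floor of 3 counts equals 0.269 to 0.468 CPM on plain library sizes, without TMM factors, and covers counting error only. None of the 4 pairs within a method agreed within sampling noise (chi-square per degree of freedom 1.18 to 2.52).

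The genes and lists were chosen with earlier results of these data known. Named genes were all members, pathway genes with an adjusted p under 0.05, the highest and lowest gene per kb of each list, Dbf4 as the partner of Cdc7 (chosen after its value was seen) and the 5 genes closest to the subunit mean, of which 1 is not reported here. The part transcripts were examined after the values were seen. The alternatives covered the test, normalization, filter, duplicates, replicate block, choice of transcript, length and leaving out each library.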

Additional observations from a re-analysis of the deposited data

How the results depend on the processing

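The number of the 9 genes called stayed at 0 under all 14 alternatives. For 6 of the 9 genes the log2 fold change also kept its sign. With duplicate reads kept it reversed for Mcm4 (0.045) and Mcm6 (0.0053), with counts summed over protein_coding transcripts for Mcm4 (0.0016), and without AHARIBO replicate 1 for Mcm3 (0.0027). The replicate numbers of the 2 methods did not pair the libraries (correlation of replicate differences -0.021, and no label ties same-numbered libraries to 1 culture). The study describes its standard RIBO-seq as done on the input, so libraries of both methods may come from the same lysates, but which ones is not stated. With the replicate number as a block, 0 of the 9 genes, 1 pathway gene and 1792 transcripts were called, against 0, 4 and 3021 without it.
The pathway calls were 4 in the main setting and 0 with DESeq2, which gave Orc4 and Cdc7 no adjusted p. With plain library sizes they were 7, with RLE factors 2 and with 1 CPM required in every library 2. With duplicate reads kept they were 1, with 1 transcript per gene 2 and with summed transcripts 0. Leaving out each standard library gave 1 to 5. Over all transcripts the calls were 3021 of 66972 tested in the main setting and 308 with DESeq2. They were 906 of 23211 tested with 1 transcript per gene and 28 of 14494 tested with summed transcripts. The share called was thus far lower with summed transcripts than in the main setting, and the reason was not tested. Leaving out each library gave 510 (without AHARIBO replicate 1) to 3829 calls (without AHARIBO replicate 2).
Log2 ratios of neighbouring subunits moved with the length: per kb of transcript, Mcm5 over Mcm7 was -0.14, Mcm7 over Mcm2 -0.14, Mcm3 over Mcm6 0.18 and Mcm6 over Mcm4 0.41. With duplicate reads kept, Mcm5 over Mcm7 was 0.17, Mcm7 over Mcm2 -0.095, Mcm2 over Mcm3 0.18 and Mcm6 over Mcm4 0.30. With summed transcripts, Mcm5 over Mcm7 was 0.24, Mcm7 over Mcm2 1.36 and Mcm6 over Mcm4 0.83, and Mcm3 over Mcm6 reversed to -0.73. Between methods, duplicates kept gave a change of -1.64 percentage points in the share of Mcm2, -0.42 in the log2 ratio of Cdt1 to Gmnn and -0.24 in that of Cdt1 to the helicase mean, and summed transcripts gave -0.38 for Cdt1 over Gmnn and 0.30 for Gmnn over the helicase mean. Leaving out each library moved none of the log2 ratios of neighbouring subunits beyond their spread, nor did using the libraries of 1 method alone. In fits without an AHARIBO library, the lone one left is assumed to vary like the others. Where no construction is named, the cause was not tested. Several part transcripts hold under 200 reads a library.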

Other observations

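An intron of Mcm7 holds the miR-106b, miR-93 and miR-25 precursors, each listed as a transcript of its own. Mir93 had 0, 2 and 0 reads in standard replicates 1 to 3 and 12 and 8 reads in AHARIBO replicates 1 and 2. It passed the filter only through AHARIBO replicate 1, so no fold change or test is given. Mir106b had 0, 0 and 1 reads against 1 and 2, and Mir25 had 0 in each standard library against 1 in each AHARIBO library, both at or under the floor of 3 counts. Mcm7 itself was at 187.3 to 196.9 CPM in standard and 172.3 and 185.1 CPM in AHARIBO RIBO-seq.

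The pseudogene Gm6510, which shares 8.14% of Gmnn's 30-nt windows, was listed with 9, 8 and 10 reads in the standard and 31 and 20 reads in the AHARIBO libraries (log2 fold change 1.08 ± 0.35, edgeR adjusted p = 0.058). Both values for AHARIBO lay above all standard libraries. Gm9577, which shares sequence with Mcm4, was listed with 133, 124 and 82 reads against 170 and 172, and Gm15654, which shares sequence with Mcm6, with 39, 29 and 27 reads against 47 and 51, and neither passed the test (edgeR adjusted p = 0.389 and 0.611). Pcna-ps2 had a log2 fold change of -0.067 ± 0.080 (edgeR adjusted p = 0.719).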
